A study of Rattus norvegicus with 6 samples.

Results

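The collagen genes described here were the 36 genes whose single annotated symbol reads Col, a number, the letter a and a number, out of 18166 genes measured on Affymetrix arrays in rat adipose-derived stem cells (ADSCs). Only Col5a1 had more than 1 array feature, and there the brighter one on average was used. By the assembly they build, 11 members were fibrillar, 5 were type IV chains of basement membranes, 3 formed networks (Col8a1, Col8a2 and Col10a1) and 17 were of other types. The other types were 7 FACIT collagens, 3 type VI chains, 3 transmembrane collagens, the 2 multiplexins Col15a1 and Col18a1, and Col7a1 and Col26a1. A further 9 collagen symbols, among them Col6a1, Col4a6 and Col21a1, were not analysed here.

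Of the arrays, 3 came from cultures induced towards adipocytes for 7 days and 3 from control cultures, all of ADSCs taken from inguinal fat. The donors were female Wistar rats aged 2 weeks. The induction medium was α-MEM with 20% fetal bovine serum, insulin at 5 µg/ml, the glucocorticoid dexamethasone at 1 µM and the phosphodiesterase inhibitor IBMX at 0.5 mM. Control cells were grown in α-MEM with 10% fetal bovine serum, so the serum content differed together with the inducers and their parts cannot be told apart. The labels call the cultures biological replicates without naming the animals behind each, so p-values measure the spread between these cultures. Values are log2 RMA signals, a logarithmic brightness with no detection call, and every difference is induced minus control.

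Collagens are secreted proteins built from chains that wind into a helix and assemble outside the cell. Fibrillar collagens give tissue its tensile strength, and fibril-associated FACIT collagens coat those fibrils. Type IV collagen forms the sheet-like network of basement membranes, which surround each mature adipocyte, while fibroblast-like stromal cells are known for making fibrillar matrix.

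In adipocyte markers the cultures answered to their labels. All 10 measured mature adipocyte markers had positive differences, and 4 of them rose (Cidec, Plin1, Pnpla2 and Lep, adjusted p = 0.0186 to 0.0312 by limma). Over all genes, 8652 of 18166 differences were positive and 0.479% were called higher. The mean of the 10 adipocyte markers was 10.70, 10.70 and 11.57 on induced replicates 1 to 3, against 8.58, 7.21 and 7.03 on control replicates 1 to 3. Control replicate 1 was thus the control array nearest to the induced ones by these genes, and induced replicate 3 was the highest. Across all features, induced replicate 3 correlated with the other induced arrays at r = 0.968 and 0.969, against r = 0.989 between those. The 9 measured stromal markers averaged 8.94, 8.83 and 7.67 on induced replicates and 9.29, 9.17 and 8.89 on control ones, with 0 called. Their median difference was -0.88, and -0.30 without induced replicate 3, where 1 of them, Thy1, was called lower. Without that array, 1.07% of all genes were called lower. In such bulk samples, fewer cells of a type and less RNA per cell cannot be told apart.

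Collagen genes differed between induced and control cultures in both directions. Col8a1, a network-forming short-chain collagen, fell 5.47-fold, and Col4a2, a main chain of basement membrane collagen, rose 2.11-fold. These were the 2 of 36 members called at an adjusted p under 0.05 (limma, Benjamini-Hochberg over all genes), that is 5.56%, where 0.749% of all genes were called. In the rising direction 0.479% of all genes were called and in the falling direction 0.270%. The groups did not overlap for 15 of 36 members, against 25.4% of all genes: induced arrays lay wholly below control arrays for 11 members (13.4% of all genes) and wholly above for 4 (12.0% of all genes). A mean difference of at least 1 on the log2 scale, which is 2-fold, was reached by 5 members, where 4.98% of all genes reached it. These 5 were Col8a1, Col14a1, Col4a1, Col4a2 and Col15a1. The number of members called depended on single arrays: it was 4 without induced replicate 3, 0 without induced replicate 1, and 1 without induced replicate 2, control replicate 2 or control replicate 3. The calls over all genes moved as well, to 557 without induced replicate 3 (3.07% of all genes, 2.00% higher and 1.07% lower) and to 2 without induced replicate 1, against 136 with every array. The median difference was -0.17 over the collagen genes and -0.01 over all genes, with 25 members negative and 11 positive.

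**Figure D1:**
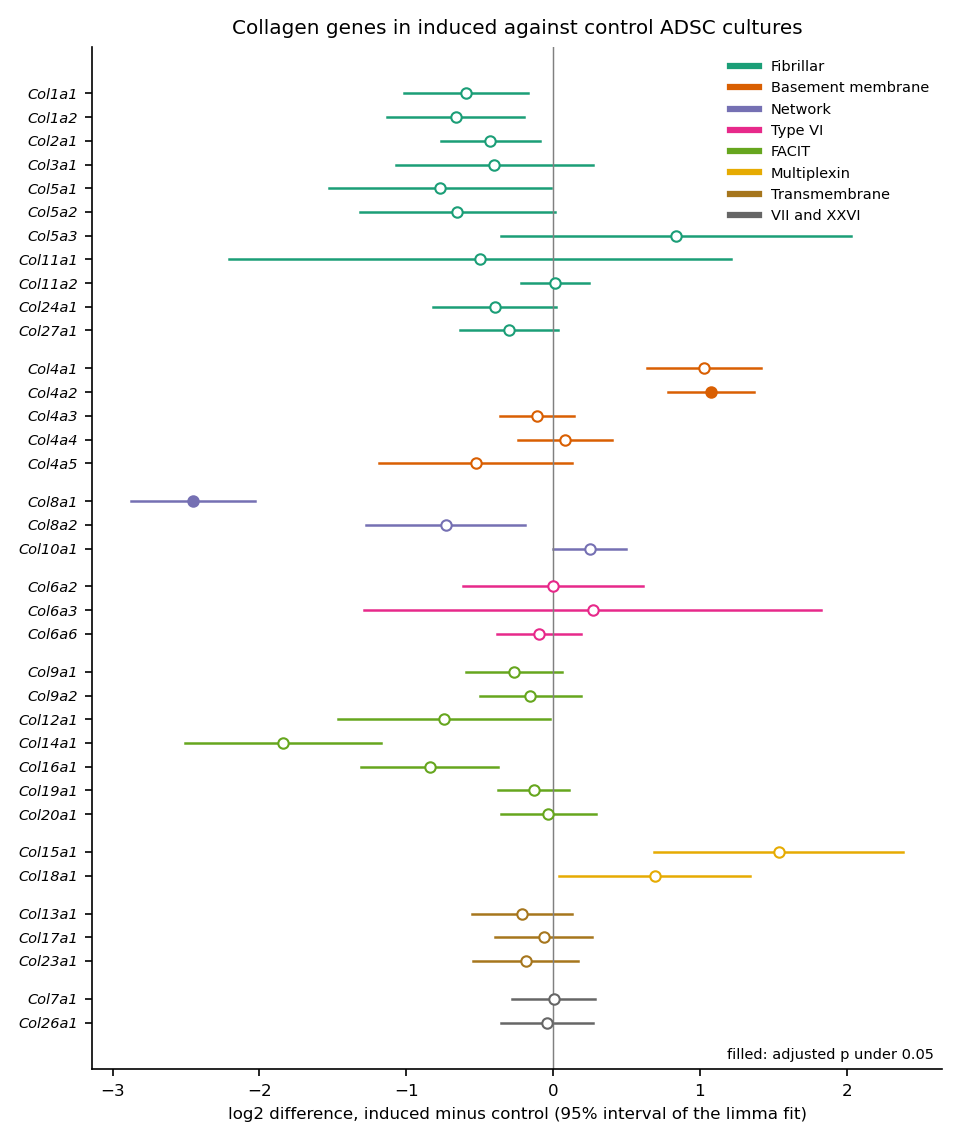
Log2 difference (induced minus control, x axis) of each of the 36 collagen genes, grouped by class from top to bottom. Points are the limma estimates from 3 arrays per group, lines their 95% intervals, and filled points have an adjusted p under 0.05: Col4a2 to the right of 0 and Col8a1 far to the left. Most fibrillar and FACIT genes lie left of 0, while Col4a1, Col4a2, Col15a1 and Col18a1 lie right of it.

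The type IV chains α1 and α2, which combine in the widespread form of basement membrane collagen, had differences of nearly equal size. Col4a2 read 10.30, 10.37 and 10.45 on induced replicates 1 to 3, against 9.48, 9.24 and 9.17 on control replicates 1 to 3. All induced values lay above all control values, and the spread was small (10.37 ± 0.07 in induced and 9.29 ± 0.16 in control cultures, SD, n = 3 each). It rose by 1.08 (SE 0.12, limma adjusted p = 0.0243). Col4a1 read 10.75, 10.83 and 10.61 on induced arrays, against 10.00, 9.66 and 9.45 on control arrays. Its difference was nearly the same, 1.03 (SE 0.16, 95% interval 0.64 to 1.42), but it missed the threshold (limma adjusted p = 0.0550). For both genes control replicate 1 was the highest control array. The Col4a2 call was lost with control replicate 2, control replicate 3, induced replicate 1 or induced replicate 2 left out (limma adjusted p = 0.102, 0.0938, 0.109 and 0.116), while its estimate stayed between 0.98 and 1.17 over 15 alternatives (adjusted p 0.00507 to 0.116). Without induced replicate 3, or without control replicate 1, both genes were called (limma adjusted p for Col4a1 0.0304 and 0.0459, over all its alternatives 0.00989 to 0.196).

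Col4a1 and Col4a2 lie head to head on chromosome 16 of the GRCr8 rat assembly, on opposite strands, with annotated starts 77 bases apart. Their promoter windows (250 bases before to 50 after the start, from RefSeq) share 176 bases and are shown because the members whose transcription starts there had nearly equal differences. The window of Col8a1, the member with the largest fall, is shown for comparison. Each is written 5′ to 3′ on the gene's own strand, and capitals mark exact matches to CCAAT or GGGCGG on either strand.
Col4a1 promoter, chr16:84885347-84885646, plus strand: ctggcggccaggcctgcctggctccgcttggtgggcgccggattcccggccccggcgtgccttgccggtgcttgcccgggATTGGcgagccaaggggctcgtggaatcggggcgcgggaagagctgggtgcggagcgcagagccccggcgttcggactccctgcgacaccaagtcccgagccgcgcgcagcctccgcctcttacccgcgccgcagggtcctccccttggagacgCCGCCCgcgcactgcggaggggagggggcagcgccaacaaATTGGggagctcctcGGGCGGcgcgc
Col4a2 promoter, chr16:84885471-84885770, minus strand: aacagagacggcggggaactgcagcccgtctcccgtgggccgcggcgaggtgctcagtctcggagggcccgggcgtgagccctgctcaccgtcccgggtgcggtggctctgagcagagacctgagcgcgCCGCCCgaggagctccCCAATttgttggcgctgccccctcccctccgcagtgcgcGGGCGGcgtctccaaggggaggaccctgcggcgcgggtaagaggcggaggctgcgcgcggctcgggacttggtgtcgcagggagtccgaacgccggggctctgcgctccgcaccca
Col8a1 promoter, chr11:56246532-56246831, plus strand: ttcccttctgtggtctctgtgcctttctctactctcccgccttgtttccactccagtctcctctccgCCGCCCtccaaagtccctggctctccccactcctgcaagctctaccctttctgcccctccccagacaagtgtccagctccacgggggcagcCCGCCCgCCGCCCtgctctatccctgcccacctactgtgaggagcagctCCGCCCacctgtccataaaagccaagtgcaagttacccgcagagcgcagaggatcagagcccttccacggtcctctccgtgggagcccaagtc
The stretch shared by the Col4a1 and Col4a2 windows held 2 matches to GGGCGG, the letters of a GC box, and 1 to CCAAT. The Col8a1 window held 4 matches to GGGCGG and 0 to CCAAT on either strand. The letters of a TATA box, TATAAA, were searched too and had 0 matches in these windows. A promoter window was found for 30 of the 36 members. GGGCGG occurred in 18 of these 30 (60.0%) and in 33.1% of the 33469 rat windows, CCAAT in 8 (26.7%) and in 37.5%, and TATAAA in 4 (13.3%) and in 14.2%. No overlap between these motifs was found in the windows shown, and a match of letters does not show that a factor binds. The 33469 rat windows were not filtered by gene type or to 1 per gene, while the members are protein-coding genes with 1 window each. The shares are thus not of like sets. Members whose windows share bases, such as Col4a1 and Col4a2, were each counted.

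The other type IV chains had smaller positive or negative differences. Col4a3 and Col4a4, which encode chains of the kidney glomerular and other specialised basement membranes, are also head to head, on chromosome 9 with starts 413 bases apart. Col4a3 stood at -0.11 (95% interval -0.36 to 0.14) and Col4a4 at 0.08 (95% interval -0.24 to 0.40), so the intervals of both stop well short of the estimates for Col4a1 and Col4a2. Both averaged below the median gene, which stood at 6.46, and RMA gives no call of whether such dim genes are expressed. Col4a5 read 6.19, 6.11 and 5.90 on induced arrays, against 6.18, 6.37 and 7.23 on control arrays. Its groups overlapped with control replicate 3 far above the rest, and its difference was -0.53 (limma adjusted p = 0.383).

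The multiplexins, which sit in the zone between basement membranes and the surrounding matrix, had positive differences that missed the threshold. Col15a1 read 10.02, 10.08 and 11.15 on induced replicates 1 to 3, against 8.40, 9.19 and 9.05 on control replicates 1 to 3. The groups did not overlap, induced replicate 3 stood highest, and control replicate 1 stood lowest. The difference was 1.54 (SE 0.35, 95% interval 0.69 to 2.39, limma adjusted p = 0.110), the largest positive one in the family. Col18a1, whose product carries the endostatin fragment, read 8.79, 8.87 and 8.16 on induced arrays, against 8.36, 7.55 and 7.84 on control arrays. Induced replicate 3 fell below control replicate 1, so the groups overlapped, and the difference was 0.69 (95% interval 0.04 to 1.34, limma adjusted p = 0.263). Induced replicate 3 was therefore the highest induced array for Col15a1 and the lowest for Col18a1.

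Col8a1 encodes a chain of type VIII collagen, a short-chain collagen known from vessel walls and the corneal Descemet membrane. It read 7.54, 7.34 and 7.67 on induced replicates 1 to 3, against 9.75, 10.30 and 9.85 on control replicates 1 to 3. A gap of over 2 on the log2 scale separated the groups, 7.52 ± 0.16 in induced and 9.97 ± 0.29 in control cultures (SD, n = 3 each). It fell by 2.45 (SE 0.18, limma adjusted p = 0.00799), and 15 of 18166 genes had a more negative difference. The call was lost with induced replicate 1 left out (limma adjusted p = 0.0814) and held with any other single array left out. Over 15 alternatives the estimate ran from -2.63 to -2.28 and the adjusted p from 0.000889 to 0.0814.

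Its partner chain Col8a2 differed less. Col8a2 read 7.89, 7.56 and 7.19 on induced arrays, against 7.98, 8.28 and 8.57 on control arrays. The groups did not overlap, by a narrow margin between induced replicate 1 and control replicate 1, and the difference was -0.73 (SE 0.23, limma adjusted p = 0.184). Taken within each array, the log2 difference Col8a1 minus Col8a2 was -0.35, -0.22 and 0.48 in induced cultures, against 1.77, 2.02 and 1.27 in control cultures. Its mean was lower by 1.72 log2 units in induced cultures, with no overlap between groups. This separation was fixed beforehand, because the gap between groups in Col8a1 was wider than the whole range of Col8a2 over all arrays. An exact two-sided permutation test therefore had to give p = 0.1, the smallest that 3 arrays against 3 allow. It adds nothing to the differences of the single genes. Col10a1, a collagen of hypertrophic cartilage, averaged 5.49 ± 0.08 in induced and 5.24 ± 0.06 in control cultures (SD, n = 3 each), below the median gene, with a difference of 0.25 (limma adjusted p = 0.284). Its induced arrays lay wholly above its control arrays.

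**Figure D2:**
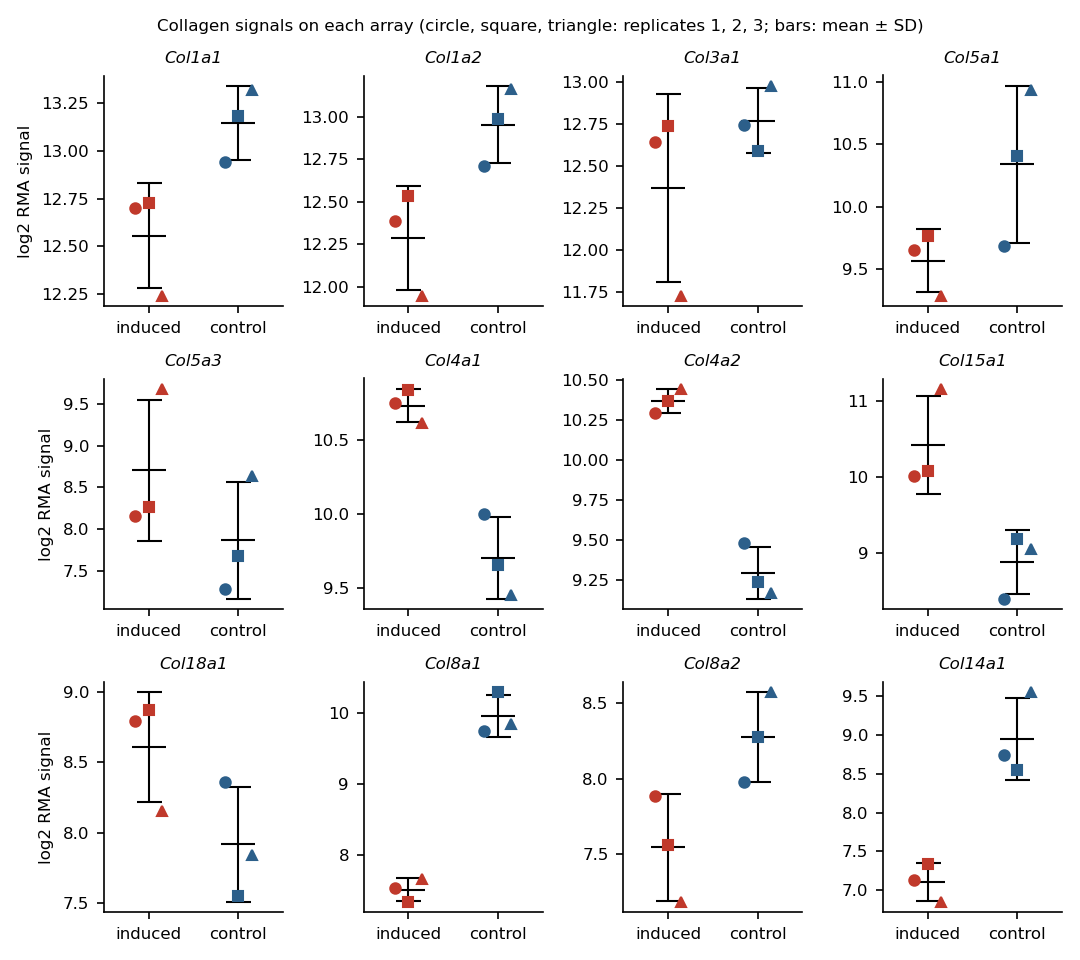
Log2 RMA signal (y axis, a separate range in each panel, not starting at 0) of 12 collagen genes on the 3 induced arrays (red, left) and the 3 control arrays (blue, right). Circles, squares and triangles are replicates 1, 2 and 3, and bars are mean ± SD. Col4a1, Col4a2, Col15a1, Col8a1, Col8a2, Col14a1, Col1a1 and Col1a2 have no overlap between groups, and the triangle of induced replicate 3 is the lowest induced value for Col1a1, Col1a2, Col3a1 and Col5a1.

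Of the 11 fibrillar genes 0 were called, and 9 had negative differences, with a median of -0.43. Type I collagen, the main fibril of most connective tissue, had negative differences of similar size in both its chains. Col1a1 read 12.70, 12.72 and 12.24 on induced replicates 1 to 3, against 12.94, 13.18 and 13.32 on control replicates 1 to 3. Col1a2 read 12.39, 12.54 and 11.95 on induced arrays, against 12.71, 12.99 and 13.16 on control arrays. For both chains every induced array lay below every control array, induced replicate 3 was the lowest and control replicate 1 the lowest of its group. The differences were -0.59 for Col1a1 (95% interval -1.02 to -0.17, limma adjusted p = 0.172) and -0.66 for Col1a2 (95% interval -1.13 to -0.20, limma adjusted p = 0.168).

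Type III collagen, which forms fine fibrils alongside type I, was not separated by group. Col3a1 read 12.64, 12.74 and 11.73 on induced arrays, against 12.74, 12.59 and 12.98 on control arrays. Its difference of -0.40 (95% interval -1.07 to 0.27, limma adjusted p = 0.518) was -0.08 with induced replicate 3 left out, and 0.023 with both arrays numbered 3 left out. Col5a2, its neighbour on chromosome 9, stood at -0.65 (limma adjusted p = 0.291), with 10.28, 10.47 and 9.59 on induced arrays, against 10.40, 10.78 and 11.12 on control arrays. Those groups overlapped as well.

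Type V collagen sits inside type I fibrils and limits their width, and the differences of its 3 chains had different signs. Col5a1 read 9.66, 9.77 and 9.29 on induced arrays, against 9.68, 10.40 and 10.93 on control arrays. Control replicate 1 lay among the induced values, and the difference was -0.77 (SE 0.32, limma adjusted p = 0.278). A second feature annotated to Col5a1, dimmer by its mean, gave -0.60. Col5a3 pointed the other way: it read 8.16, 8.27 and 9.67 on induced arrays, against 7.29, 7.68 and 8.64 on control arrays. The array numbered 3 was the highest of both groups, the groups overlapped, and the difference was 0.83 (95% interval -0.36 to 2.03, limma adjusted p = 0.448). Within each array, Col5a3 minus Col5a1 was -1.49, -1.50 and 0.39 in induced cultures, against -2.40, -2.73 and -2.29 in control cultures. Its mean was 1.60 higher in induced cultures, with no overlap between groups (exact two-sided permutation p = 0.1, the smallest possible here).

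Among the remaining fibrillar genes, Col11a1, a chain of the fibril core in cartilage, varied most. It read 9.22, 9.60 and 8.35 on induced arrays, against 7.89, 10.34 and 10.45 on control arrays. Control replicate 1 was lower than every induced array, and the difference of -0.50 had an interval from -2.21 to 1.21. Its sign depended on the arrays used: it was 0.30 without both arrays numbered 3 (limma adjusted p = 0.903). With induced replicate 3 and control replicate 1 both left out, a choice made after these values were seen, it was -0.98 and called (limma adjusted p = 0.0335). Col2a1, the main cartilage collagen, Col24a1 and Col27a1 stood at -0.43, -0.40 and -0.30 (limma adjusted p = 0.203 to 0.332). Col11a2 stood at 0.01 with a narrow interval, -0.22 to 0.24.

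The balance between basement membrane and type I collagen can be read within each array, where a difference common to both genes cancels. Col4a1 minus Col1a1 was -1.95, -1.89 and -1.63 in induced cultures, against -2.94, -3.52 and -3.87 in control cultures. Col4a2 minus Col1a2 was -2.09, -2.17 and -1.50 in induced cultures, against -3.23, -3.75 and -3.99 in control cultures. Both were higher on every induced array than on every control array, by means of 1.62 and 1.74, and control replicate 1 was the control array nearest to the induced ones. This separation was fixed beforehand, because induced arrays lay wholly above control arrays for Col4a1 and Col4a2 and wholly below for Col1a1 and Col1a2. An exact two-sided permutation test therefore had to give p = 0.1 for each, the smallest possible. It adds nothing to the differences of the single genes. Between chains of the same protein, Col1a1 minus Col1a2 differed by 0.07 (exact permutation p = 0.3) and Col4a2 minus Col4a1 by 0.05 (exact permutation p = 0.7), and their groups overlapped. The same comparison for Col4a3 minus Col4a4, Col5a1 minus Col5a2, Col3a1 minus Col5a2, Col15a1 minus Col18a1 and Col6a3 minus Col6a2 gave overlapping groups. There the exact permutation p was 0.3, 0.7, 0.3, 0.4 and 0.8. Such within-array differences compare the same pair of features between arrays and say nothing about which chain was more abundant.

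**Figure D3:**
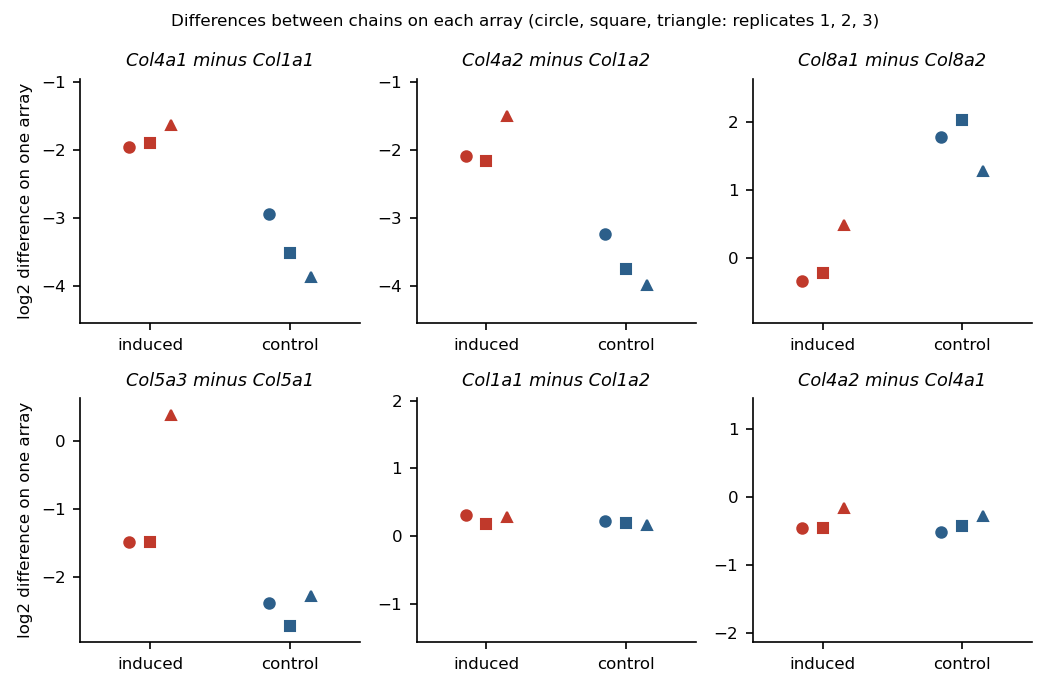
Log2 difference between 2 collagen genes on the same array (y axis, each panel spanning the same number of log2 units) for the 3 induced arrays (red, left) and the 3 control arrays (blue, right). Circles, squares and triangles are replicates 1, 2 and 3. Groups are apart for Col4a1 minus Col1a1, Col4a2 minus Col1a2, Col8a1 minus Col8a2 and Col5a3 minus Col5a1, and overlap for Col1a1 minus Col1a2 and Col4a2 minus Col4a1. For Col4a1 minus Col1a1 and Col4a2 minus Col1a2 the gap follows from the single genes, which were separated in opposite directions. For Col8a1 minus Col8a2 it follows from the single genes too, because the gap in Col8a1 was wider than the whole range of Col8a2.

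All 7 FACIT collagens had negative differences, median -0.27, and 0 were called. For 5 of them every induced array lay below every control array, which held for 13.4% of all genes. Col14a1, which binds to type I fibrils and is a common fibroblast gene, read 7.13, 7.34 and 6.85 on induced arrays, against 8.75, 8.55 and 9.55 on control arrays. The groups were over 1 log2 unit apart, and the difference of -1.84 (SE 0.28, 95% interval -2.51 to -1.17) was the second most negative in the family and just missed the threshold (limma adjusted p = 0.0506). Over its alternatives the adjusted p ran from 0.00622 to 0.190, and it was called without induced replicate 3 (limma adjusted p = 0.0351). Col16a1 read 6.88, 7.13 and 6.72 on induced arrays, against 7.44, 7.73 and 8.08 on control arrays. It stood at -0.84 (limma adjusted p = 0.112), again with no overlap. Col12a1 stood at -0.74 (limma adjusted p = 0.275), and Col9a1, Col9a2, Col19a1 and Col20a1 between -0.27 and -0.03.

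Type VI collagen forms beaded filaments around cells and is abundant in adipose tissue. Its chains were not separated by group. Col6a2 read 10.79, 10.89 and 10.17 on induced arrays, against 10.63, 10.24 and 10.97 on control arrays, a difference of 0.00 with an interval from -0.61 to 0.62. Col6a3 read 9.22, 9.07 and 10.64 on induced arrays, against 9.10, 8.39 and 10.63 on control arrays. The array numbered 3 was far above the others in both groups, the difference was 0.27 and its interval ran from -1.29 to 1.82. Col6a6 stood at -0.10 on a dim feature. The transmembrane collagens Col13a1, Col17a1 and Col23a1 stood between -0.21 and -0.06, Col7a1, which anchors epithelium to dermis, at 0.00 and Col26a1 at -0.04, all with overlapping groups.

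In all, 23 members averaged above the median gene and 13 did not. The 13 dim members had differences from -0.53 to 0.25, and every member with a difference of 1 or more belonged to the brighter 23. RMA compresses dim signals, so a small difference of a dim gene does not show that its RNA was equal. Single arrays stood out in many members at once: induced replicate 3 was the lowest induced array for 24 of 36 members, and control replicate 1 was the lowest control array for 24. The same count was not made over all genes, so it may not be particular to collagen genes. Over the 36 members the mean was 7.89, 7.93 and 7.77 on induced replicates 1 to 3, against 7.88, 8.03 and 8.29 on control replicates 1 to 3, so the family mean overlapped between groups. The 11 fibrillar genes averaged 9.13, 9.24 and 8.90 on induced arrays, against 9.04, 9.51 and 9.78 on control arrays, and control replicate 1 lay within the induced range.

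Over all genes, 9514 of 18166 differences were negative and 0.749% were called. Of 62 genes that fold, export, cross-link, bind or break down collagen or build basement membranes with it, 50 had negative differences and 1 was called. That gene was Itga11, a collagen receptor subunit of fibroblasts, which read 9.31, 9.17 and 9.07 on induced arrays, against 10.93, 11.20 and 12.03 on control arrays. It fell by 2.20 (SE 0.28, limma adjusted p = 0.0323). Of the 9 receptor genes the other 8 did not pass, Itga2 standing at -1.44 and Itga1 at 0.26, and the median was -0.16.

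Enzymes and chaperones of chain folding had a median difference of -0.77. Of 17, 16 were negative, 0 were called, and 13 had every induced array below every control array, against 13.4% of all genes. The list mean was 9.51, 9.62 and 8.81 on induced replicates 1 to 3, against 9.87, 10.20 and 10.41 on control replicates 1 to 3, with induced replicate 3 far lowest. Without that array the median was -0.58 and 3 genes were called lower (P4ha3, P3h2 and Fkbp14, limma adjusted p = 0.0112 to 0.0466). In that setting 1.07% of all genes were called lower. Plod2, which hydroxylates lysines of the chain ends, stood at -2.13 (limma adjusted p = 0.285) and read 8.83, 9.00 and 5.88 on induced arrays, against 8.95, 10.52 and 10.64 on control arrays. P4ha3, a prolyl hydroxylase subunit, stood at -1.60 (limma adjusted p = 0.0866) and read 10.89, 10.77 and 9.71 on induced arrays, against 11.84, 12.17 and 12.17 on control arrays. For Plod2 the low value was that of induced replicate 3 and the groups overlapped, while for P4ha3 they did not. Serpinh1, the collagen chaperone HSP47, stood at -0.77 (limma adjusted p = 0.140).

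Of 10 genes of secretion and propeptide removal 9 were negative and 0 were called, with a median of -0.71. Creb3l1, a transcription factor known for driving type I collagen genes in bone, stood at -1.52 (limma adjusted p = 0.134) and Tll1, a propeptide protease, at -1.06 (limma adjusted p = 0.259). Of 6 cross-linking genes 0 were called (median -0.56), with Loxl4 at -1.40 and Loxl1 at -0.89 (limma adjusted p = 0.110 and 0.504). Loxl1 was -0.14 without induced replicate 3, where the list median was -0.20. Of 9 collagen breakdown genes 0 were called (median -0.73), with Mrc2, an uptake receptor for collagen, at -1.71 and Fap at -1.40 (limma adjusted p = 0.0683 and 0.310). Without induced replicate 3, Mrc2 was -1.38 and Fap -0.61, and both were called (limma adjusted p = 0.0129 and 0.0456). In that setting the list median was -0.31, and 1.07% of all genes were called lower. The 11 other basement membrane genes were 4 positive and 7 negative with a median of -0.12, 0 called and 0 without overlap. Nid1, a basement membrane linker, stood at -0.43 and Lama2, a laminin chain, at 0.39 (limma adjusted p = 0.364 and 0.800). Induced replicate 3 stood lowest here too, and without it Nid1 was -0.22 and Lama2 was 1.05, with 0 of the 11 called (limma adjusted p for Lama2 0.186). Whether these genes differ from Col4a1 and Col4a2 was not tested.

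**Figure D4:**
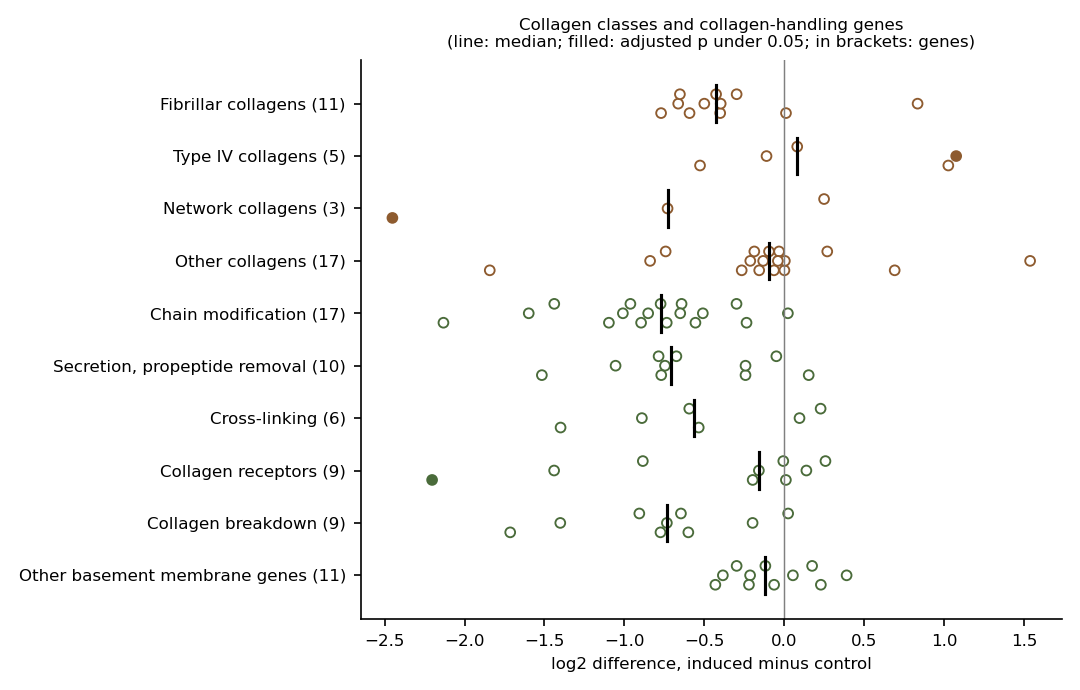
Log2 difference (induced minus control, x axis) of each gene in the 4 collagen classes (brown) and in 6 lists of collagen-handling genes (green), with the number of genes in brackets. Points are limma estimates from 3 arrays per group, vertical lines are medians and filled points have an adjusted p under 0.05. Chain modification, secretion and breakdown genes lie mostly left of 0, with medians of -0.77, -0.71 and -0.73, and the filled points are Col4a2, Col8a1 and Itga11.

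Markers of other cell types that make basement membrane or cartilage collagens were checked beside these values. The 8 measured endothelial markers all averaged below the median gene, with list means from 4.84 to 5.00 on induced arrays and from 5.01 to 5.15 on control arrays. The 7 epithelial markers (list means from 4.76 to 5.05 induced, 4.88 to 5.00 control) and the 6 chondrocyte markers (5.04 to 5.22 induced, 5.07 to 5.23 control) were all below it too. Of 7 mural cell markers 3 averaged above it, with 4 positive and 3 negative differences and a median of 0.03. Among them Mcam read 7.66, 7.56 and 10.51 on induced arrays, against 6.42, 5.74 and 6.29 on control arrays, while Myh11, Kcnj8 and Abcc9 stood at -0.62, -0.58 and -0.57. Of 4 Schwann cell markers S100b, which adipocytes also make, stood at 2.19 and Mbp at 1.96, while the defining markers Sox10 and Cdh19 stood at -0.15 and -0.03, below the median gene. The 10 macrophage markers averaged 7.69, 7.12 and 6.22 on induced arrays, against 6.82, 7.01 and 5.77 on control arrays, lowest on replicate 3 of both groups. Of 7 osteoblast markers Runx2 stood at -1.22 (limma adjusted p = 0.0614), and 0 genes of these 7 lists were called. Without induced replicate 3, 7 of them were: Mcam, S100b, Mbp and the macrophage genes C1qa, C1qb and C1qc were higher and Runx2 was lower (limma adjusted p = 0.00123 to 0.0468). In that setting 3.07% of all genes were called. The part of mural, Schwann, macrophage and osteoblast markers in the collagen differences was not tested.

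**Figure D5:**
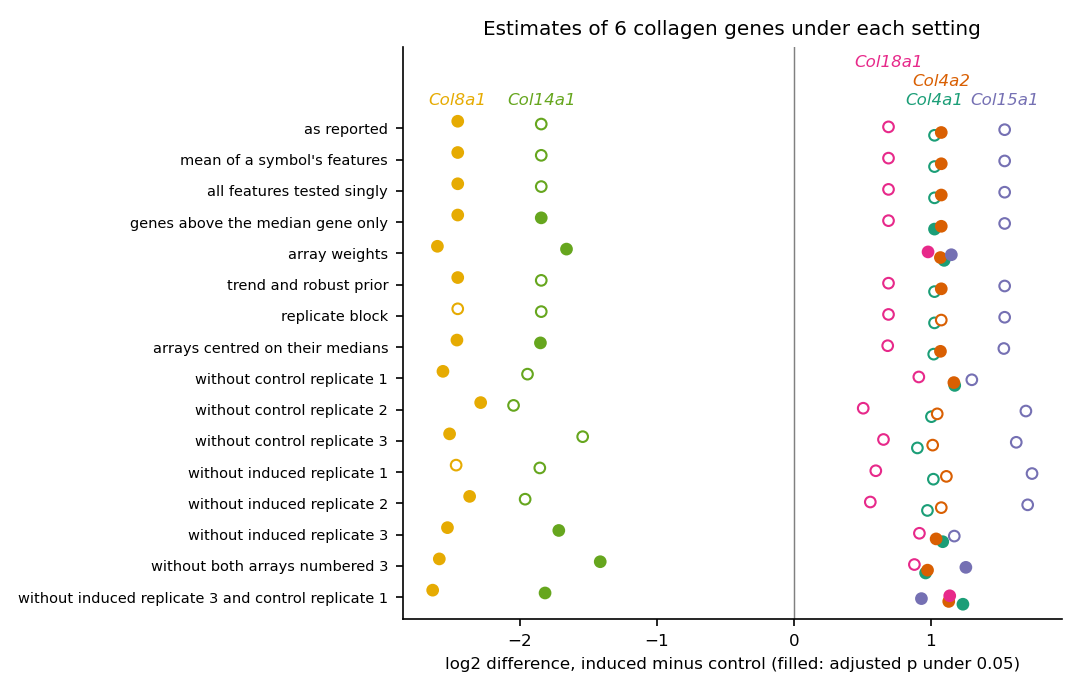
Log2 difference (induced minus control, x axis) of 6 collagen genes as reported (top) and under 15 alternative settings (y axis), with filled points where the adjusted p is under 0.05. Col8a1 stays between -2.63 and -2.28 and Col4a2 between 0.98 and 1.17, while the filling of the points changes with the arrays used.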

How the data were processed

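RNA was measured on 3 induced and 3 control arrays. The deposited table holds log2 values made by the authors with RMA, per the submitters' processing notes (RMA version: not given in the sources used here). The log2 scale was inferred from the numbers, with array medians from 5.64 to 5.73. RMA normalizes arrays to a common distribution, so a change in total RNA cannot be seen. The array annotation gave 18511 of 36685 features 1 symbol, 575 several and 17599 none. Genes were named through gene numbers in GRCr8 (18394 matched) and reduced to 18166 symbols.

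The tests were two-sided moderated tests of limma 3.58.1 under R 4.3.3 (lmFit and eBayes without a block), with Benjamini-Hochberg adjustment over all genes. The fit was also run on simulated data with equal, independent noise on every array. Estimated array weights here ran from 0.27 for induced replicate 3 to 1.90 for control replicate 2. That run therefore cannot show how the calls behave with such unequal arrays. A gene is called, or said to rise or fall, at an adjusted p under 0.05. SE and 95% intervals are those of the fit, and the number of arrays limits the precision. Members, lists and naming rule (all called members, members 2-fold apart without overlap, the main chains, and up to 4 called genes or the 2 largest differences per list) were chosen with earlier results of these data known. Col11a1, Col16a1, Serpinh1, Itga1, some further markers, and the lists without induced replicate 3 are given in addition, chosen after their values were seen. Planned protein features are not analysed here. Replicate numbers were checked for pairing, and deviations of same-numbered arrays correlated at 0.02, 0.12 and 0.15 for replicates 1, 2 and 3. Induced replicates 2 and 3 and control replicate 3 correlated best with the array of their own number, and the other arrays did not. This check does not settle whether cultures were paired. They were not treated as pairs, since the labels do not say that they belong together.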

Additional observations from a re-analysis of the deposited data

How the results depend on the processing

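Calls depended on single arrays more than estimates did. Of the collagen genes 2 were called as reported. The number was 4 of 23 members among genes above the median gene, where 163 of 9083 genes were called. It was 7 with array weights, 0 with the replicate block and 5 without both arrays numbered 3. It was 9 without induced replicate 3 and control replicate 1, an alternative chosen after seeing the data. With 1 array left out it ran from 0 to 4. Of all genes 136 were called, against 69 with all features tested singly, 929 with array weights, 12 with the replicate block, 740 without both arrays numbered 3 and 978 when induced replicate 3 and control replicate 1 were dropped. With 1 array left out this ran from 2 to 557. The replicate number as a block left Col8a1 at an adjusted p of 0.0653 and Col4a2 at 0.0834 (limma). The labels do not say whether arrays of the same number belong together. Signs turned under at least 1 alternative for 10 of the 36 members, 0 of them called as reported. Of the members given in full, Col3a1 stood at 0.023 without both arrays numbered 3. Col6a2 stood at -0.0048 with arrays centred on their medians, at -0.19 without control replicate 2, -0.08 without induced replicate 1 and -0.14 without induced replicate 2, against 0.23 when induced replicate 3 and control replicate 1 were both dropped. Col6a3 stood at -0.22 without control replicate 2, -0.23 without induced replicate 3 and 0.90 without control replicate 3. Dropping induced replicate 3 together with control replicate 1 gave -0.37. The other 7 were Col11a1 (0.30 without both arrays numbered 3), Col4a4 (-0.035 without induced replicate 1), Col7a1, Col11a2, Col17a1, Col20a1 and Col26a1, the last 5 with reported differences from -0.06 to 0.01. The cause of these shifts was not tested. Of called genes 64.0% were higher, against 51.0% with array weights. Arrays have no read depth, and RMA values give no signal over background, so dim members allow no statement on expression.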
